A study of Mus musculus with 6 samples.

Results

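The genes described here encode proteins of the brain extracellular matrix and proteoglycans that bind the neural cell adhesion molecule NCAM. The list names 10 genes, Ncan, Bcan, Vcan, Ptprz1, Ptn, Agrn, Cspg5, Sparc, Sparcl1 and Tnc, and every probe set annotated with exactly 1 of these symbols was taken. This gave 15 of the 12422 probe sets on the array, for 9 of the 10 genes, and Cspg5, a transmembrane chondroitin sulfate proteoglycan of neurons, was not analysed here. The probe sets were taken by gene symbol alone, but the genes were chosen with earlier results of these data known. Transcripts came from total brain RNA of 6 C57BL/6J mice, all males, with 1 one-colour Affymetrix array per animal. In 3 animals the Ncam gene (Ncam1 in the annotation) carried a constitutive knockout, and 3 wild-type animals shared the genetic background. The age was 2 months for replicates 1 and 2 of each genotype and 3 months for replicate 3, and the labels name no drug or other treatment. Because the deletion is constitutive and the tissue is the whole brain, a difference confined to 1 region or cell type is averaged with the rest, and fewer cells of a type cannot be told apart from less RNA per cell.

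The space between brain cells is filled with a mesh of hyaluronan, the chondroitin sulfate proteoglycans neurocan, brevican and versican, and linking glycoproteins such as the tenascins. In the adult brain this mesh condenses around some neurons as perineuronal nets. Several of its components bind NCAM directly, among them neurocan, the extracellular part of the receptor phosphatase Ptprz1 and, through its heparan sulfate chains, agrin.

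In knockout brains none of these matrix and ligand transcripts differed from wild type beyond the adjusted threshold. Leaving out dim probe sets, those of brevican and neurocan and 1 of agrin had the lowest means relative to wild type, with log2 differences between -0.23 and -0.28, and versican, pleiotrophin, Sparc and Sparcl1 all lay within 0.05 of 0. Of the 15 probe sets, 10 were bright enough to be tested, with a mean log2(signal + 16) at or above 6.46, which corresponds to a signal of 72.2. These 10 covered 8 genes, and the 5 others, including both for Tnc, were too dim. Differences are given as knockout minus wild type on the log2(signal + 16) scale, with a standard error and an adjusted p from limma over all 7453 tested probe sets.

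Every array carried the same scaling, and the targeted gene matched the labels. The brightest Ncam1 probe set read 276.2, 208.7 and 327.4 in knockout replicates 1, 2 and 3 and 1346, 1448 and 1216 in the wild-type animals (log2 difference -2.26 ± 0.15, adjusted p = 0.00076 in limma). For a single value the smallest p of an exact permutation test of 3 against 3 is 0.1 (two-sided), which this probe set reached. The other Ncam1 probe sets had mean signals of 86.3 ± 14.9 against 147.0 ± 7.02 (SD, n = 3) and of 5.75 ± 1.92 against 6.93 ± 2.10. Both of the younger knockout brains stood apart from the rest. In knockout replicate 2 the summed signal of 8 cerebellar markers was 1574, against 7152 to 8329 on the other arrays, and in knockout replicate 1 the sum of 8 pituitary markers was 15816, against 985 to 1401 elsewhere. Pituitary sums in knockout replicates 2 and 3, 1318 and 1401, also lay above the wild-type range of 985 to 1152. The summed signal of 10 astrocyte markers was 14633 to 15400 in knockout animals against 15845 to 16294 in wild-type animals, and that of 8 myelin markers was 12298 to 13800 against 13927 to 14915, both without overlap. Of these markers 6 of 9 tested astrocyte and 5 of 7 tested myelin genes had lower means in knockout brains. None was called in limma. At an unadjusted p under 0.05 the test gave 3 astrocyte and 3 myelin genes lower and 1 astrocyte gene, Gja1, higher. Over all tested probe sets 3.68% were lower and 3.26% higher at that limit. The 3' to 5' signal ratio of Gapdh, a sign of RNA quality, ran from 0.811 to 0.826 in knockout brains and from 0.768 to 0.798 in wild-type ones, while that of actin overlapped, at 1.145 to 1.223 against 1.084 to 1.196. Neuronal markers summed to 23464 to 24229 against 23406 to 24699, and none of the astrocyte, myelin or neuronal markers was at 0.

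The lecticans, which link hyaluronan to cell surfaces and tenascins, were examined first. Brevican, encoded by Bcan and abundant in the mature brain, read 603.5, 775.0 and 749.2 in knockout replicates 1, 2 and 3 (probe set 92700_at). In wild-type replicates 1, 2 and 3 it read 939.9, 895.2 and 756.2. The lowest brain was a knockout and the 2 highest were wild type, but knockout replicate 2 lay above wild-type replicate 3, so the groups overlapped. The log2 difference was -0.28 ± 0.12 with a 95% interval of -0.55 to -0.01, and it did not pass (adjusted p = 0.719 in limma). It was -0.17 without knockout replicate 1 (adjusted p = 0.868 in limma) and -0.41 in the 2-month-old animals alone.

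Neurocan, the lectican best known for binding NCAM and the related molecule L1, is encoded by Ncan. Its brighter probe set (98798_at) read 194.7, 174.9 and 202.0 in knockout brains against 196.2, 203.7 and 288.4 in wild-type brains. Of the 6 values 5 lay between 174.9 and 203.7, and the 3-month-old wild-type brain stood above them. The difference of -0.23 ± 0.15 (interval -0.58 to 0.12, adjusted p = 0.789 in limma) shrank to -0.07 without that animal (adjusted p = 0.971 in limma). Versican, encoded by Vcan, had no such direction. Its probe set read 120.7, 145.2 and 199.5 in knockout against 171.3, 150.3 and 151.0 in wild-type brains, so that the lowest and the highest brain were both knockouts. The difference was -0.04 ± 0.17 (adjusted p = 0.975 in limma), and the knockout SD of 40.3 exceeded the wild-type SD of 11.9.

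Ptprz1 and its ligand pleiotrophin form a second group. Ptprz1 is a receptor tyrosine phosphatase of glia whose extracellular part carries chondroitin sulfate and is also released as phosphacan. One of its probe sets (92378_at) read 359.5, 351.5 and 411.9 in knockout animals against 409.1, 378.2 and 342.4 in wild-type animals, a difference of -0.01 ± 0.11 (interval -0.25 to 0.23). A less specific one (92379_f_at) read 661.3, 563.1 and 559.5 against 535.5, 594.3 and 523.8, a difference of 0.10 ± 0.10 (interval -0.12 to 0.33). In both cases the groups overlapped, and the adjusted p values were 0.992 and 0.844 in limma. Pleiotrophin, the heparin-binding growth factor encoded by Ptn, was read by a probe set picked with some selection rules dropped (97474_r_at). It gave 136.0, 136.6 and 89.2 in knockout against 122.6, 125.9 and 105.6 in wild-type brains, and within each genotype the 3-month-old animal was lowest. The genotype difference was 0.01 ± 0.18, with an interval of -0.39 to 0.41 that is the widest among the tested members (adjusted p = 0.994 in limma).

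Agrin, encoded by Agrn, is a heparan sulfate proteoglycan that organises the neuromuscular junction and is also made by neurons and glia in the brain. Its probe set 104763_at read 590.2, 697.5 and 651.9 in knockout against 814.5, 682.6 and 845.0 in wild-type brains. The 2 highest values were wild type, while wild-type replicate 2 lay between the knockout animals. The difference was -0.26 ± 0.11 (interval -0.50 to -0.03, adjusted p = 0.719 in limma). The second Agrn probe set (97921_at) read 926.5, 880.1 and 716.0 against 863.4, 862.1 and 832.7, a difference of -0.03 ± 0.10 (adjusted p = 0.970 in limma). The mean of both probe sets gave -0.15 for the gene (adjusted p = 0.759 in limma).

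The secreted glycoproteins complete the set. Sparcl1, or hevin, an astrocyte protein that promotes the formation of synapses, read 4382, 4509 and 4649 in knockout against 4444, 4580 and 4216 in wild-type brains. Its difference of 0.03 ± 0.06 had the narrowest interval of the tested members, -0.09 to 0.16 (adjusted p = 0.916 in limma). Sparc, a related collagen-binding protein of vessels and glia, read 955.8, 873.5 and 819.8 against 998.6, 1035 and 713.8, a difference of -0.04 ± 0.14 (adjusted p = 0.974 in limma). As for pleiotrophin, the 3-month-old animal was lowest in each genotype. Tenascin-C, encoded by Tnc, is a glycoprotein mainly of the developing brain, and its brighter probe set read 41.8, 35.6 and 70.1 in knockout against 58.0, 41.7 and 33.7 in wild-type brains, all below the filter limit. The other Tnc probe set read between 1.83 and 9.76 on all arrays.

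**Figure D1:**
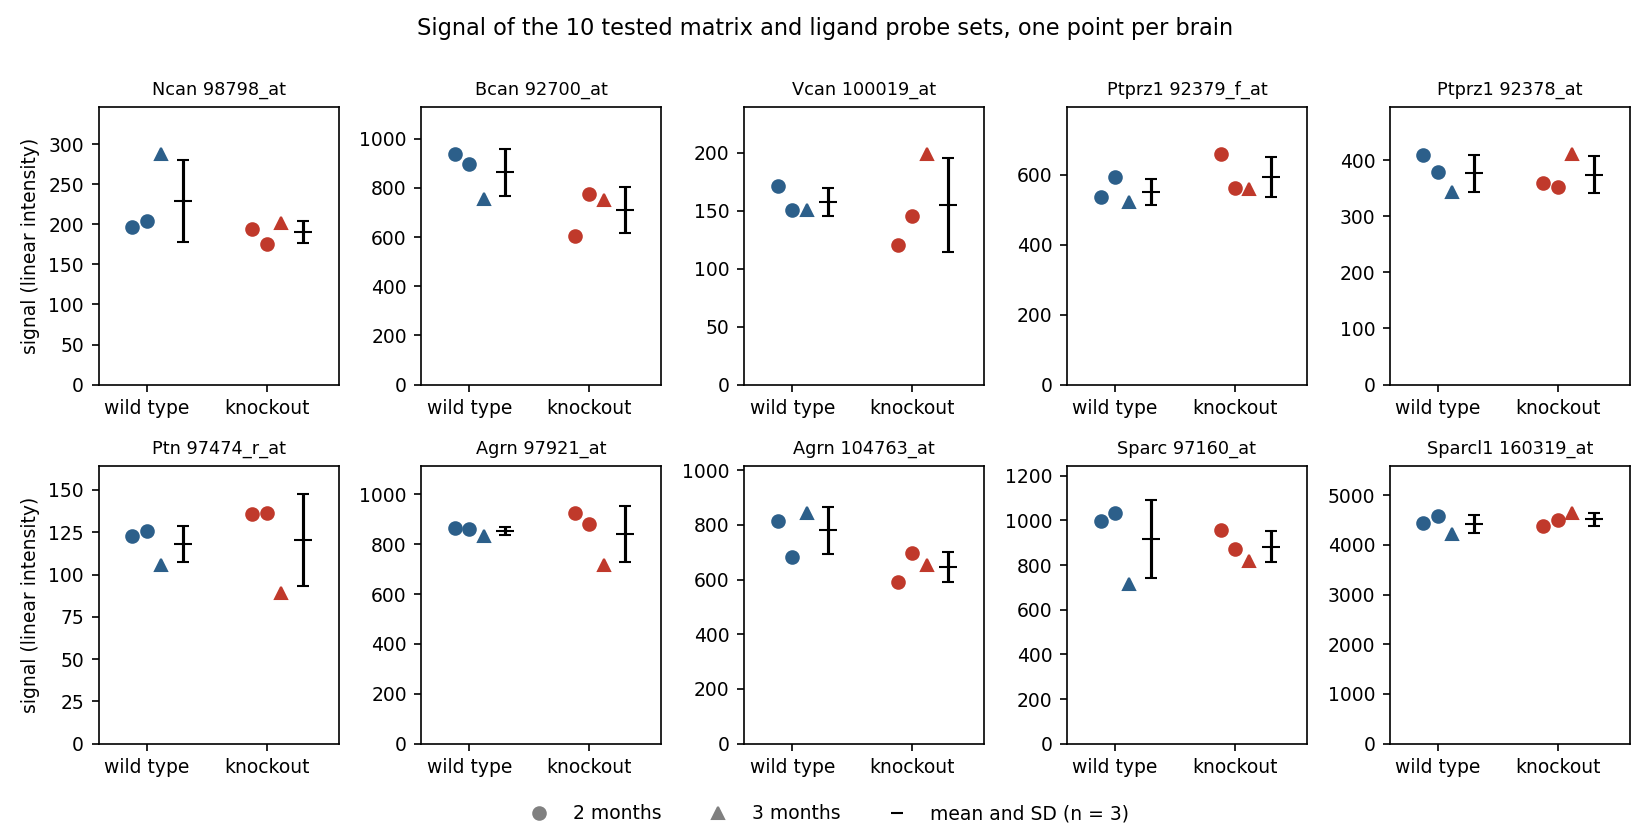
Signal (linear intensity, axes from 0) of each tested probe set in wild-type (blue) and knockout (red) brains, with circles for 2-month-old and triangles for 3-month-old animals, and bars for the mean and SD of 3 animals. The genotypes overlap in all 10 panels, and the triangles are the lowest points of both groups for Ptn, Sparc, Agrn 97921_at and Ptprz1 92379_f_at.

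Over the tested members, 7 probe sets had lower and 3 higher means in knockout brains, with a median log2 difference of -0.03 against 0.00 over all tested probe sets. None of the 10 was called at an adjusted p under 0.05 in limma, where 0.0268% of all tested probe sets were. At an unadjusted p under 0.05 in limma 2 of the 10 were lower, Bcan and Agrn 104763_at, and 0 were higher, where 3.68% of all probe sets were lower and 3.26% higher. Signals of the 2 genotypes did not overlap for 0 of the 10, where 6.80% of all tested probe sets were lower and 6.08% higher without overlap. With 1 array left out, 0 of the 10 had an unadjusted p under 0.05 in limma without knockout replicate 1 or wild-type replicate 1. There were 2 without knockout replicate 2, and 1 without any of the other arrays in turn. Of all 7453 tested probe sets, 420, 713 and 611 had such a p without knockout replicates 1, 2 and 3. Without wild-type replicates 1, 2 and 3 these numbers were 351, 458 and 394. Without an intensity trend 0 of the 10 had such a p, and 493 of all 7453 did. Among 10 marker lists, the summed astrocyte, myelin and pituitary markers given above did not overlap between the genotypes, nor did the Gapdh ratio. Their part in the lower means of Bcan, Ncan and Agrn 104763_at was not tested. The part of the low cerebellar signal in knockout replicate 2 was not tested either. Some intervals of the fit to all 6 arrays were narrow enough to bound the size of a genotype difference for a probe set. That of Sparcl1 lay within 0.16 of 0 on the log2 scale, and those of Agrn 97921_at and Ptprz1 92378_at within 0.26. The other tested probe sets of Agrn and Ptprz1 reached further, with intervals of -0.50 to -0.03 and -0.12 to 0.33. For these genes the difference was thus not bounded within 0.26. The choice of animals also moved the values. Agrn 97921_at had -0.25 with knockout replicate 3 alone against wild type, and Ptprz1 92378_at had -0.14 in the 2-month-old animals alone.

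**Figure D2:**
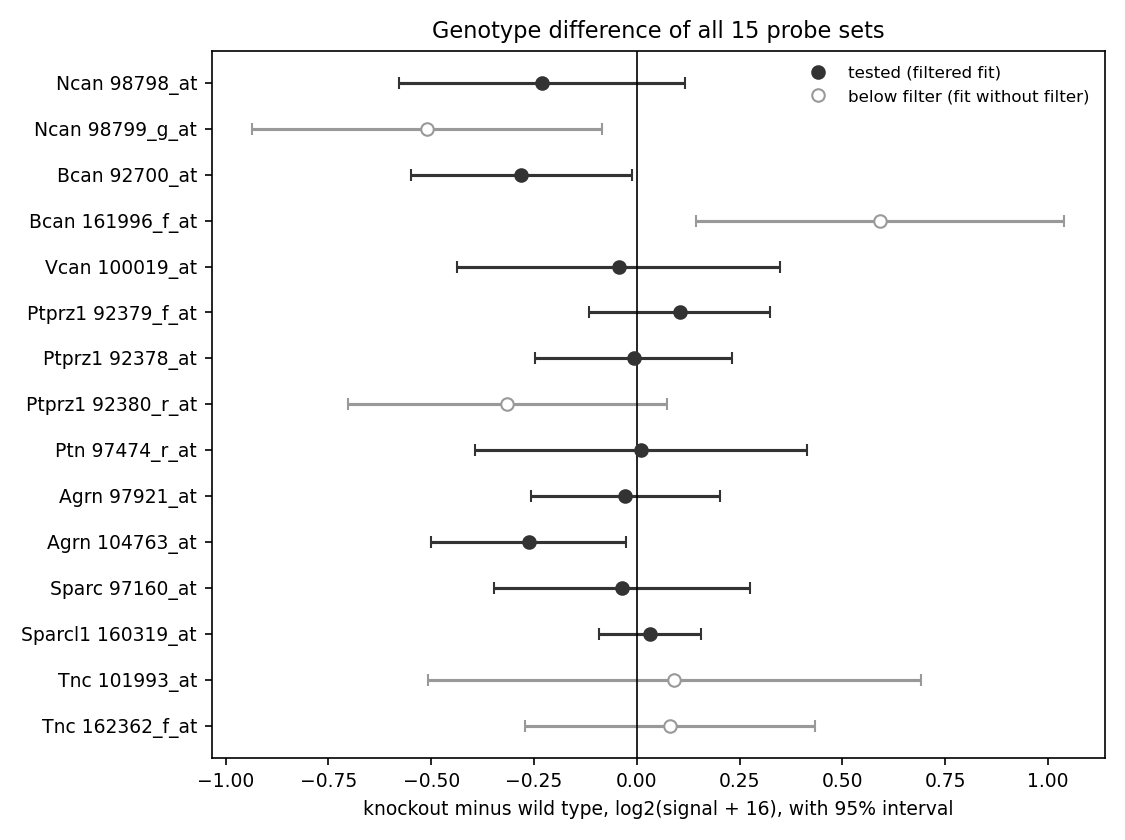
Knockout minus wild-type difference on the log2(signal + 16) scale with its 95% interval for all 15 probe sets, with filled symbols for the 10 tested ones and open symbols for the 5 below the filter, which come from the fit without a filter. Of the filled intervals only those of Bcan (-0.55 to -0.01) and Agrn 104763_at (-0.50 to -0.03) leave out 0, and the open Bcan and Ncan intervals lie on opposite sides of it.

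Dim and less specific probe sets of the same genes did not all follow the bright ones. The dim Bcan probe set (161996_f_at) read 90.2, 82.2 and 64.2 in knockout against 44.0, 54.1 and 42.2 in wild-type brains. All 3 knockout brains were thus higher, opposite in direction to the bright Bcan probe set, and over the 6 arrays the log2 values of both had r = -0.70. Neurocan's dim probe set (98799_g_at), annotated to the same sequence record as the bright one, read 25.4, 27.5 and 22.6 against 32.6, 48.8 and 47.7, lower in all 3 knockout brains. The dim Ptprz1 probe set (92380_r_at) read 42.9, 34.8 and 37.0 against 51.2, 51.6 and 51.2, again lower in all 3, while the 2 bright ones overlapped. Among the 5 dim probe sets, 2 were therefore lower and 1 higher without overlap, where 5.45% of all 12422 probe sets were lower and 6.59% higher. In the fit without a filter their log2 differences were 0.59 ± 0.19 for Bcan, -0.51 ± 0.18 for Ncan and -0.31 ± 0.17 for Ptprz1, and none passed (adjusted p 0.743, 0.794 and 0.80 in limma). At such signals the pseudocount of 16 compresses differences. The values ran from 22.6 to 48.8 for Ncan, 34.8 to 51.6 for Ptprz1 and 42.2 to 90.2 for Bcan. The 2 tested Agrn probe sets had r = -0.07 over the arrays and the 2 tested Ptprz1 probe sets r = -0.14, so array-to-array differences of one probe set were not repeated by the other.

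**Figure D3:**
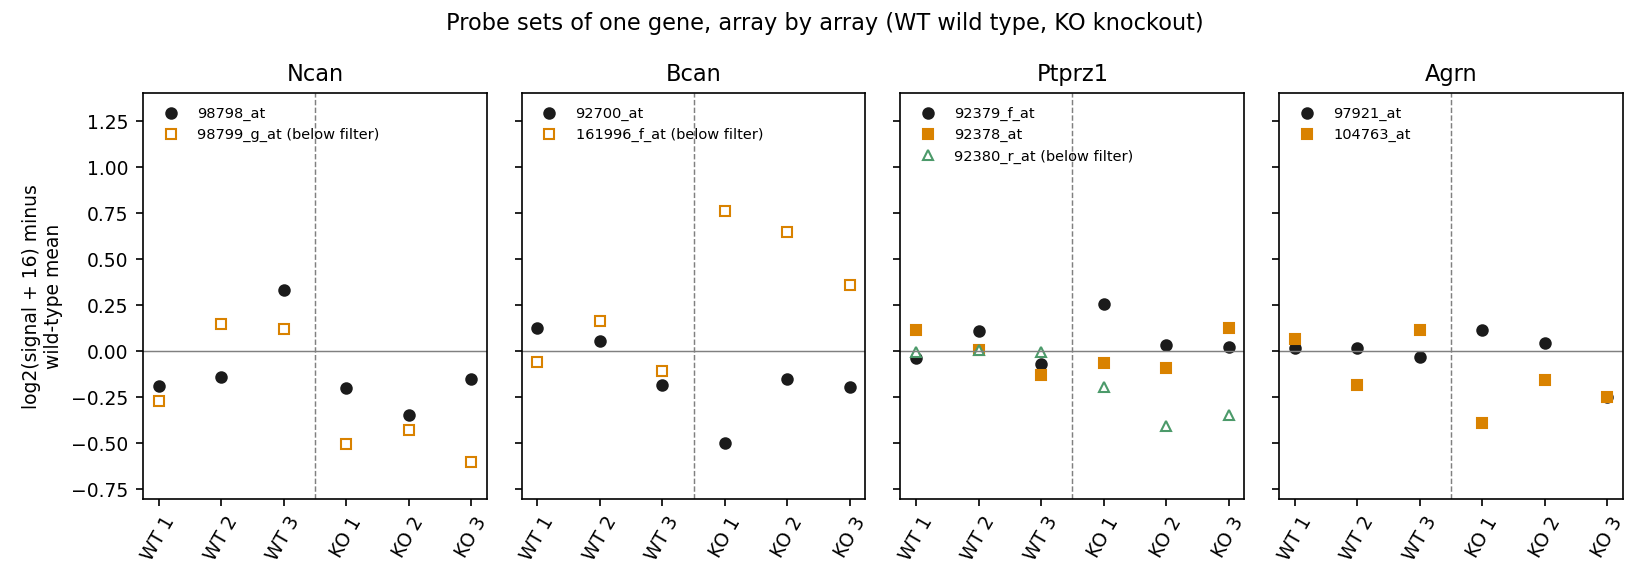
Values of each probe set of Ncan, Bcan, Ptprz1 and Agrn on the 6 arrays, as log2(signal + 16) minus the mean of the wild-type animals, with filled symbols for tested and open symbols for dim probe sets. For Bcan the open squares lie above 0 in all 3 knockout brains (0.36 to 0.76) and the filled circles below it (-0.50 to -0.15).

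The 2 ages were compared next, since each genotype held 2 animals of 2 months and 1 of 3 months. Pleiotrophin read 89.2 and 105.6 in the 3-month-old and 122.6 to 136.6 in the 2-month-old brains, without overlap. The difference of 3 minus 2 months, with genotype in the model, was -0.37 ± 0.14 on the log2 scale (adjusted p = 0.361 in limma). Sparc read 713.8 and 819.8 against 873.5 to 1035, a difference of -0.33 ± 0.10 (adjusted p = 0.273 in limma). Agrn 97921_at, at 716.0 and 832.7 against 862.1 to 926.5, had -0.19 ± 0.09 (adjusted p = 0.413 in limma). These 3 of the 10 tested members were lower without overlap and 0 were higher, where 10.3% of all tested probe sets were lower and 11.4% higher. Ncan went the other way, at 202.0 and 288.4 against 174.9 to 203.7, with 0.31 ± 0.13 (adjusted p = 0.387 in limma) and overlapping ages. These values rest on the single older brains. Without wild-type replicate 3 the Ncan difference was 0.12 and that of Sparc -0.15, and without knockout replicate 3 those of Ptn and Agrn 97921_at were -0.21 and -0.05. None of the members passed, and 0.0268% of all probe sets did. At an unadjusted p under 0.05 in limma 2 members were lower at 3 months (Ptn and Sparc) and 1 higher (Ncan), where 6.09% of all probe sets were lower and 6.31% higher. With 2 animals of 3 months, the smallest exact permutation p for a single value is 0.0667. The 3-month-old animals were also those numbered 3, so age cannot be told apart from anything else that those animals share.

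The genotype difference itself was compared between the ages with an interaction term. No member passed (adjusted p 0.857 to 0.997 in limma), where 0.0268% of all tested probe sets did. At an unadjusted p under 0.05 in limma there were 0 of the 10, where 5.70% of all tested probe sets were. The largest interaction was that of Vcan, at 0.62 ± 0.28, since the 3-month-old brain was higher than the 2-month-old ones in knockout (by 0.54 on the log2 scale) and lower in wild type (-0.08). Each genotype had a single 3-month-old brain, which the fit assumes to vary like the others.

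Across the 6 arrays the members did not move as 1 block. Of the 45 pairs of tested probe sets 20 had a positive correlation, with a median r of -0.06, given as a description over 6 arrays that share their scaling. Ptn and Agrn 97921_at were most alike (r = 0.95), both low in knockout replicate 3, and Vcan and Agrn 97921_at were most opposed (r = -0.89). The probe sets of single genes most like the bright Ncan probe set over the 6 arrays were those of Pygm (r = 0.997), Slc4a3 (0.988), Dctpp1 (0.987), Slc25a25 (0.987) and Brap (0.983). With so few arrays 84 of 6735 probe sets (1.25%) reached r above 0.9 with it.

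Genes that work with these matrix proteins were taken as 6 lists, with the brightest probe set of each gene. Of 102 such genes on the array 68 were tested, 34 with lower and 34 with higher means in knockout brains, and none was called after adjustment (lowest adjusted p = 0.719 in limma). At an unadjusted p under 0.05 in limma 1 of the 68 was lower, Timp1, and 0 were higher, where 3.68% of all tested probe sets were lower and 3.26% higher. Without overlap 2 of the 68 were lower and 1 higher. The same genes had 13 further tested probe sets, of which 1, for Nrp1, was higher at an unadjusted p under 0.05 in limma. Of these 13, 3 were higher without overlap, for Nrp1, Dag1 and Ptprd, and 0 were lower. Over all tested probe sets 6.80% were lower and 6.08% higher without overlap. The median log2 difference of the 68 genes was 0.00, as over all probe sets.

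Agrin partners and basement membrane genes mostly had lower means, 9 of 11 tested genes, with a median of -0.15. Lamc1, a laminin chain, had -0.27 ± 0.15, Lama4, a laminin chain of vessels, -0.27 ± 0.19, Lamb1 0.08 ± 0.18 and Dag1, the dystroglycan to which agrin and laminins bind, 0.01 ± 0.08. By the brightest probe set of each gene the genotypes overlapped throughout, and no unadjusted p was under 0.05 in limma. The dimmer tested Dag1 probe set read 155.1, 178.4 and 161.2 in knockout against 143.9, 144.8 and 144.8 in wild-type brains, higher in all 3 (0.17 ± 0.12, adjusted p = 0.797 in limma). The summed signal of 10 endothelial and mural markers was 1440 to 1768 in knockout animals against 1580 to 1856 in wild-type animals, and its part in these values was not tested.

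The list of pleiotrophin and proteoglycan receptors, which also holds the growth factor Mdk, had 20 tested genes. Of these 8 were lower and 12 higher, with a median of 0.03. Contactin 1, encoded by Cntn1 and a neuronal binding partner of Ptprz1, had -0.15 ± 0.13 and Lrp1 -0.03 ± 0.07. Gpc1, a glypican, had 0.21 ± 0.11, and Nrp1 had 0.16 ± 0.14 by the brighter of its 2 probe sets and 0.43 ± 0.14 by the dimmer one, which was higher in all 3 knockout brains (adjusted p = 0.645 in limma). Of the hyaluronan and perineuronal net list only 4 of 12 genes on the array were bright enough. Fbln2, a fibulin that binds lecticans, read 75.7, 100.5 and 29.4 in knockout against 108.5, 98.9 and 126.9 in wild-type brains (-0.69 ± 0.32, adjusted p = 0.724 in limma), whereas Fbln1 had -0.04 ± 0.09 and the integrin chain Itgav 0.03 ± 0.06.

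Matricellular and small leucine-rich proteins had 6 of 10 genes lower and a median of -0.03. Spock1 had -0.16 ± 0.14, the small proteoglycan Bgn -0.10 ± 0.10 by the brighter of its 2 probe sets and 0.16 ± 0.13 by the dimmer one, Fstl1, which shares a domain with Sparc, 0.29 ± 0.15, and Smoc1 0.15 ± 0.15. The list for chondroitin and heparan sulfate synthesis had 4 of 11 genes lower and a median of 0.01. Among them B3gat3, which completes the linker of both chains, had -0.12 ± 0.10, and the heparan sulfate polymerases Ext1 and Ext2 had -0.14 ± 0.13 and 0.10 ± 0.09. Chst2, a sulfotransferase on the list that is not taken here to build either chain, had 0.17 ± 0.14 by the brighter of its 2 probe sets. The dimmer one gave -0.11 ± 0.13. Matrix proteases and their inhibitors had 4 of 12 genes lower and a median of 0.09. Timp1, an inhibitor of metalloproteinases, read 384.3, 329.8 and 150.3 in knockout against 387.5, 497.3 and 511.2 in wild-type brains. All 3 knockout brains were lower, by a narrow margin in replicate 1 (-0.75 ± 0.29, adjusted p = 0.719 in limma). The dim Timp1 probe set, below the filter, overlapped, with mean signals of 13.3 in knockout and 17.5 in wild-type brains. Bmp1, a protease that matures matrix proteins, had -0.21 ± 0.11, Prss12, the neuronal protease neurotrypsin that cleaves agrin, 0.30 ± 0.17, and Plat, the tissue plasminogen activator, 0.14 ± 0.09. By these probe sets Bmp1 was also lower and Plat higher in all 3 knockout brains, but the other tested Bmp1 probe set overlapped (-0.27 ± 0.16), with knockout replicate 1 the highest of the 6 at 304.0.

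**Figure D4:**
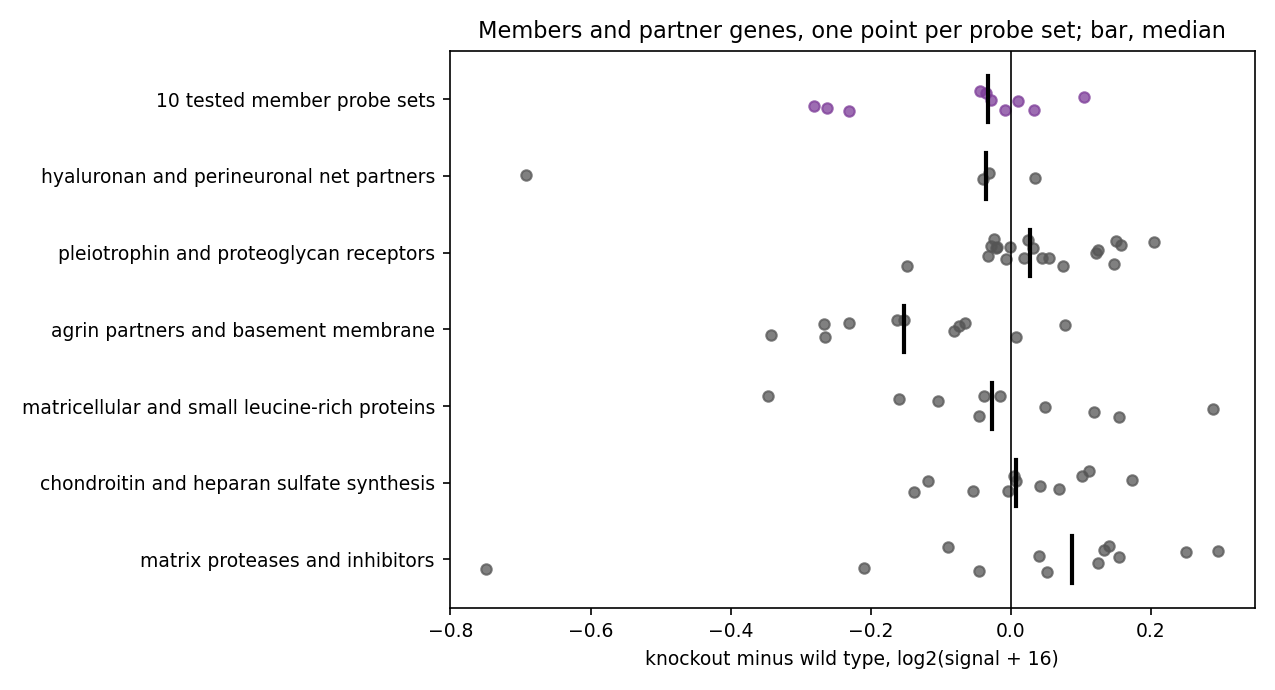
Knockout minus wild-type difference on the log2(signal + 16) scale for the 10 tested member probe sets and for the tested genes of the 6 partner lists, 1 point per probe set, with a black bar at each median. Medians run from -0.15 for agrin partners and basement membrane to 0.09 for proteases and inhibitors, and no point passed the adjusted threshold.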

How the data were processed

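Signal intensities on a linear scale, deposited by the authors for each probe set and array, were made with GCOS 1.4 per the submitters' processing notes. No source used here names its settings or algorithm. The mean of the middle 96% of values was 300.2 on every array, so each array appears scaled to 1 target, which would hide a change in total RNA. After 66 control entries were removed, 12422 probe sets remained, 10833 of them annotated with 1 symbol in a platform table of older date. Values were taken as log2(signal + 16), which understates folds of dim genes, and probe sets at or above the 40th percentile of the mean were kept.

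The genotype comparison used limma 3.58.1 under R 4.3.3 (intensity trend, two-sided, Benjamini-Hochberg over all kept probe sets, threshold 0.05), after a check of the procedure on simulated data. The labels describe separate animals. The number of arrays limits the precision, with a median standard error of 0.12 on the log2 scale. Members, partner lists and marker lists were chosen with earlier results of these data known. Partners named are, per list, the 2 genes with the lowest p in each direction, and genes like Ncan are the 5 with the highest r. The age term was read after the data were seen. Suffixes such as _f_at, _r_at and _g_at stand for lower specificity or for probes picked with some selection rules dropped. Figures were drawn with matplotlib 3.10.9. Alternatives were a replicate block, age in the model, only the 2-month-old animals, leaving out each array, 2 other scalings, pseudocounts of 1 and 64, no filter or one at the 60th percentile, no trend, array weights and averaging a gene's probe sets.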

Additional observations from a re-analysis of the deposited data

How the results depend on the processing

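No member passed in the genotype comparison under those of the 19 alternatives that gave it a value (adjusted p 0.305 to 0.999 in limma). The number of such alternatives was 17 for Vcan and Ptn, which fell below the stricter filter, and 18 or 19 for the others. With the replicate number as a block 0 members were called. In that fit 1 of the 10 tested members had an unadjusted p under 0.05 in limma, and 634 of all 7453 probe sets did. Same-numbered animals did not all deviate together (r of 0.02, 0.15 and 0.20), so the numbers were not taken as pairs. Knockout replicate 3 alone, a comparison added after the data were seen, gave 0.31 for Vcan and -0.35 for Ptn, which assumes that the single animal varies like the wild-type ones. Over all probe sets the 2 calls became 1 with quantile normalisation, median centring, no filter or no intensity trend. They became 3 in the 2-month-old animals alone and 4 with array weights. With an array left out there were 1 to 2, and 1 without knockout replicate 1, wild-type replicate 1 or wild-type replicate 2. From 2, the number of interaction calls rose with median centring or a pseudocount of 1. It fell with the stricter filter and without a filter or trend. The 2 age calls became 1 with a pseudocount of 1 or no filter, 0 without a trend (882 at an unadjusted p under 0.05), and 0 to 5 with an array left out, 5 without knockout replicate 3 and 0 without any single wild-type animal (664 to 854). Age differences of Ptn, Sparc and Agrn 97921_at ran from -0.53 to -0.21, -0.50 to -0.15 and -0.33 to -0.05 over the alternatives. These members were named because their ages did not overlap, so their unchanged sign is no separate support. Ranges of Ncan (0.12 to 0.50), Ptprz1 92379_f_at (-0.18 to -0.06) and Agrn 104763_at (0.02 to 0.18) also kept 1 sign. Those of the remaining tested members did not. The cause of the changes between settings was not tested. The dim members near the filter limit are the least certain.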
